A study of Mus musculus with 8 samples.

Results

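The genes described here are the alpha-arrestins Arrdc4, Txnip, Arrdc1, Arrdc2 and Arrdc3 together with the glucose-sensing transcription factors Mlxip (MondoA), Mlxipl (ChREBP) and their partner Mlx. They were followed in whole mouse embryos with 2, 1 or 0 copies of an allele from which Ott1 (now Rbm15, a gene of the Spen family of RNA-binding proteins) is expressed at a low level. A gene probe belonged to the set if its accession is a RefSeq transcript of one of these 8 genes, and 6 of the 34967 gene probes on the arrays did. They read 5 of the 13968 genes that could be named on the arrays. Arrdc4, Arrdc2, Mlx and Mlxipl each had 1 probe and Txnip had 2, so 5 of the 8 genes in the rule were measured. No probe was matched to Arrdc1, Arrdc3 or Mlxip, and these 3 genes are not analysed here. The set was put together because Arrdc4 was lower in homozygous embryos, so that difference is given as a description and without a test.

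Arrays were read for 3 homozygous embryos (embryos 2, 7 and 16), 3 heterozygous embryos (embryos 3, 10 and 15) and 2 wild type embryos (embryos 11 and 13), all at E11.5. Each array holds total RNA of 1 genotyped embryo from matings of carriers of the allele, and the labels give neither strain nor sex. The replicates are separate embryos. The measurement is the intensity of a biotin-labelled cRNA on a one-colour CodeLink oligonucleotide array, given below as log2 of the intensity after quantile normalization between arrays. Levels of different probes are not comparable with each other on this scale.

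Alpha-arrestins are cytosolic adaptors that bring ubiquitin ligases of the Nedd4 family to membrane proteins and so send these to endocytosis. Txnip and Arrdc4 both restrain glucose uptake, and both are direct targets of MondoA, which senses glucose phosphates and acts on DNA as a heterodimer with Mlx. ChREBP, the product of Mlxipl, also pairs with Mlx and is best known from liver and fat, where it turns on genes of sugar and lipid metabolism.

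The paired E-box to which Mlx heterodimers bind is called a carbohydrate response element, and the promoters of the 2 known shared targets are shown because the results turn on these genes. The sequences are from RefSeq on GRCm38.p6, 5′ to 3′ on the gene's strand, and end at the base before the start of the gene. Capitals mark the E-box CACGTG, the E-box-like core CACGNG repeated with 5 bases between the copies, and the CCAAT box, each searched on both strands (ATTGG is CCAAT on the other strand).
Txnip, chr3:96557707-96557956, plus strand: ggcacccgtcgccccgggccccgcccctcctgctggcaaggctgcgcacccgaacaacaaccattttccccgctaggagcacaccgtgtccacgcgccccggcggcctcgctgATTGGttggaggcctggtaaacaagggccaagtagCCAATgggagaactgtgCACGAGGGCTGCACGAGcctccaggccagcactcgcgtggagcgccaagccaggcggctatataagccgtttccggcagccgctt
Arrdc4, chr7:68749239-68749488, minus strand: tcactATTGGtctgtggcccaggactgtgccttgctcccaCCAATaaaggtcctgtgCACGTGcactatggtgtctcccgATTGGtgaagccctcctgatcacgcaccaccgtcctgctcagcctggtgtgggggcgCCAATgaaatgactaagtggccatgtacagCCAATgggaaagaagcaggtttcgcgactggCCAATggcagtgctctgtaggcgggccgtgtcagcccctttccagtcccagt

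In the Txnip promoter the direct repeat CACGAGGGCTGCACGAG began 85 bases before the start of the gene, next to a CCAAT box that began 102 bases before it. This repeat was found in 16 of 32851 RefSeq promoter windows of 300 bases (0.0487%), and among the windows of the 8 genes in that of Txnip only. The Arrdc4 window held no such direct repeat but had 1 CACGTG, beginning 193 bases before the start, and 6 CCAAT boxes. CACGTG was present in 7.15% and CCAAT in 37.4% of all windows. The Mlx window and 1 of the 2 Mlxipl windows also held a single CACGTG. These matches describe the letters and are not measurements of binding.

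The arrays themselves were not alike. The median background-corrected intensity was 61.4, 61.5 and 87.9 in homozygous embryos 2, 7 and 16, against 48.3 to 57.6 in the heterozygous and wild type embryos, so array brightness and homozygosity cannot be told apart. Log2 values correlated at 0.956 to 0.968 between embryo 16 and the others and at 0.973 to 0.990 among the 7 others. Embryos 16, 3 and 15 averaged 4.04, 5.03 and 4.34 over 2 probes of the Y chromosome, against 6.82 or more in the 5 others. Rbm15 itself had no matched probe, so the arrays do not check the genotype. Erythroid, neuronal, skeletal muscle and liver markers were above background on all 8 arrays wherever a probe was present. Among the markers of tissues outside the embryo proper, Amn was above background on 0 arrays, Apoa4 and Tpbpa on 1 each, and Prl8a2 on 7, with means of 7.12 in homozygous, 5.89 in heterozygous and 7.65 in wild type embryos. In whole embryos, fewer cells that express a gene and less of its RNA per cell cannot be told apart.

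Arrdc4, an arrestin-domain adaptor that in mice acts on glucose transporters at the cell surface, was lower in every homozygous embryo than in any other embryo. Its probe GE121438 (the gene spans chr7:68736994-68749238) read 8.88, 8.89 and 8.81 in homozygous embryos 2, 7 and 16, against 9.61, 9.59 and 9.65 in heterozygous embryos 3, 10 and 15 and 9.54 and 9.52 in wild type embryos 11 and 13. The 3 homozygous embryos lay within 0.08 of each other and the 5 others within 0.13. The gap was already present in the deposited intensities before any normalization, which were 481.4, 517.1 and 467.6 in homozygous embryos, against 817.9, 714.1 and 656.4 in heterozygous and 803.4 and 754.4 in wild type embryos.

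The Arrdc4 mean was 8.86 ± 0.05 (SD, n = 3) in homozygous and 9.58 ± 0.05 (SD, n = 5) in the other embryos, a log2 difference of -0.72 (SE 0.08), or 1.65-fold lower. Set against each genotype, the difference was -0.75 (SE 0.09) from heterozygous and -0.67 (SE 0.10) from wild type embryos. These comparisons share the homozygous arrays. The difference from the 5 others was -0.70 without embryo 16, the array that stood apart. This is a description, since these same arrays led to the choice of Arrdc4. Scaling by array medians gave -0.96 and the deposited table gave -0.99. The median over all tested probes moved too, being -0.22 and -0.25 in these settings and -0.06 here.

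**Figure D1:**
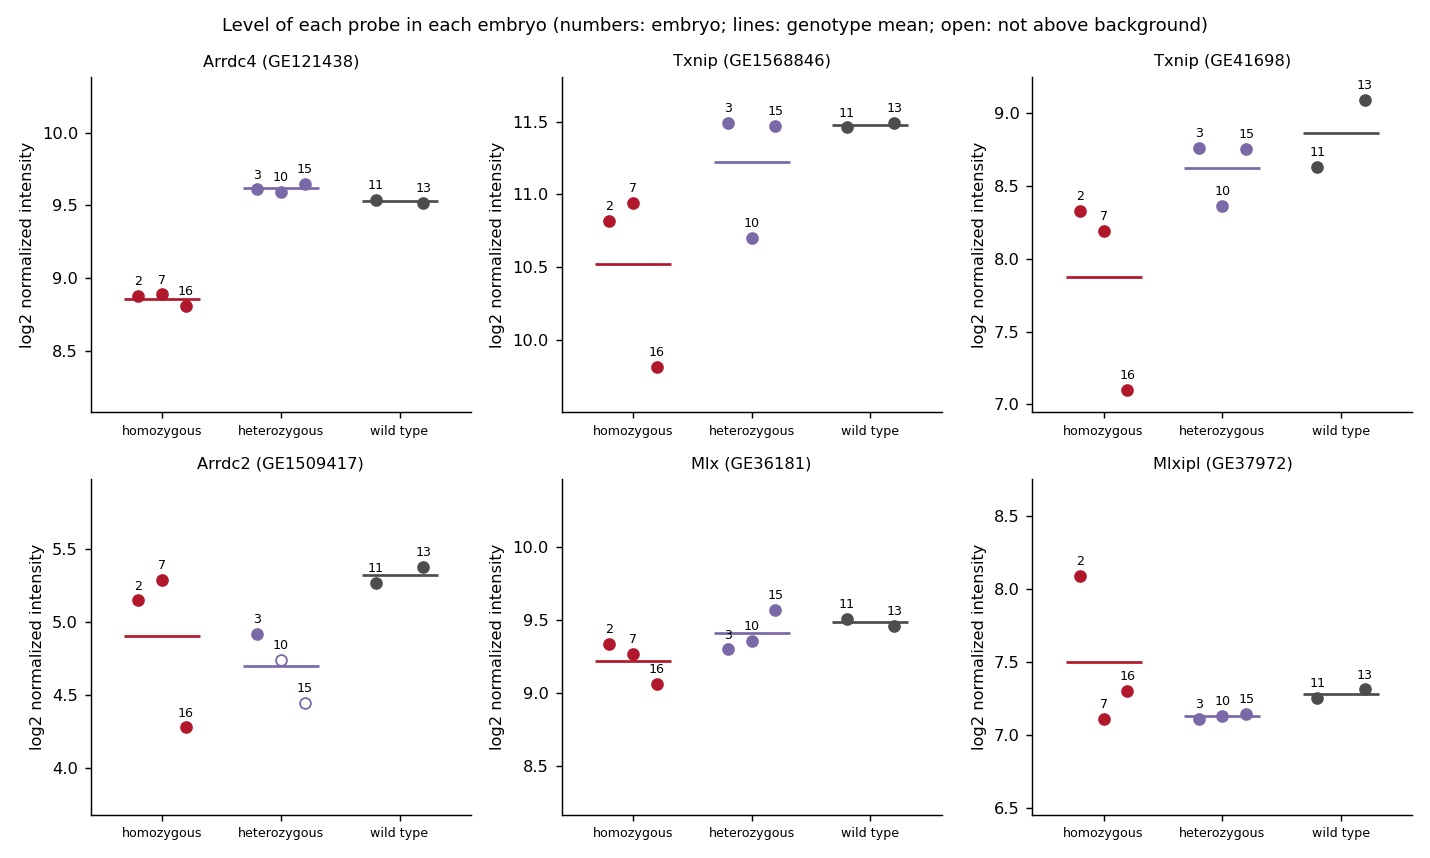
Log2 normalized intensity (vertical axis, each panel spanning the same range) of the 6 probes in the 3 homozygous, 3 heterozygous and 2 wild type embryos; each point is 1 embryo with its number, lines are genotype means, and open points were not above background. The homozygous Arrdc4 values (8.81 to 8.89) lie below all others (9.52 to 9.65), while Txnip spreads widely within homozygous embryos.

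The comparison of heterozygous with wild type embryos played no part in the choice of Arrdc4. Arrdc4 averaged 9.62 ± 0.03 (SD, n = 3) in heterozygous and 9.53 ± 0.02 (SD, n = 2) in wild type embryos, a difference of 0.09 (SE 0.10, limma adjusted p = 1, 95% interval -0.15 to 0.33). The 3 heterozygous values were all above the 2 wild type values, but the difference did not pass the test. In order, the homozygous level was the lowest, and the heterozygous and wild type levels above it were not separated by the test.

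Txnip, the alpha-arrestin that binds thioredoxin and promotes the internalization of glucose transporters, had lower means in homozygous embryos at both of its probes, without passing the test. Probe GE1568846 read 10.82, 10.94 and 9.82 in homozygous embryos 2, 7 and 16, against 11.49, 10.70 and 11.47 in heterozygous embryos 3, 10 and 15 and 11.46 and 11.49 in wild type embryos 11 and 13. Embryo 16 was the lowest of all, and heterozygous embryo 10 lay below homozygous embryos 2 and 7, so the groups overlapped. The 4 remaining heterozygous and wild type embryos lay between 11.46 and 11.49.

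The second Txnip probe, GE41698, read 8.33, 8.19 and 7.10 in homozygous embryos 2, 7 and 16, against 8.76, 8.36 and 8.75 in heterozygous embryos 3, 10 and 15 and 8.63 and 9.09 in wild type embryos 11 and 13. Here too embryo 16 was lowest and embryo 10 was the lowest of the 5 others, but the groups did not overlap, by a margin of 0.03 between embryos 2 and 10. Both probes carry the same RefSeq accession, so they are 2 readings of 1 gene (chr3:96557957-96561857) and not independent evidence.

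For GE1568846 the mean was 10.53 ± 0.61 (SD, n = 3) in homozygous and 11.32 ± 0.35 (SD, n = 5) in the other embryos, a difference of -0.79 (SE 0.29, limma adjusted p = 0.195), or 1.73-fold lower. For GE41698 the means were 7.87 ± 0.67 and 8.72 ± 0.26, with a difference of -0.84 (SE 0.28, limma adjusted p = 0.182), or 1.79-fold lower. The mean Txnip difference was of a size like that of Arrdc4, but the homozygous embryos spanned 1.12 and 1.23 at the Txnip probes and 0.08 at that of Arrdc4. The Arrdc4 span is a description, since the fall of Arrdc4 on these arrays led to its choice. Embryo 16 set the low end of both Txnip spans. Embryos 2 and 7 read 10.82 and 10.94 at GE1568846, and 8.33 and 8.19 at GE41698. Without embryo 16 the 2 Txnip differences were -0.44 (adjusted p = 0.376) and -0.46 (adjusted p = 0.297). Leaving out embryos 10 and 16 together, a setting chosen after the data were seen, gave -0.59 (adjusted p = 0.065) and -0.55 (adjusted p = 0.182).

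Between heterozygous and wild type embryos the Txnip differences were -0.26 (SE 0.37) and -0.23 (SE 0.36), both with a limma adjusted p of 1. Their 95% intervals, -1.12 to 0.60 and -1.08 to 0.61, are wide, and embryo 10 stood below the other heterozygous embryos at both probes. In order of means, Txnip was lowest in homozygous, then heterozygous, then wild type embryos at both probes, and no neighbouring pair was separated by the test.

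**Figure D2:**
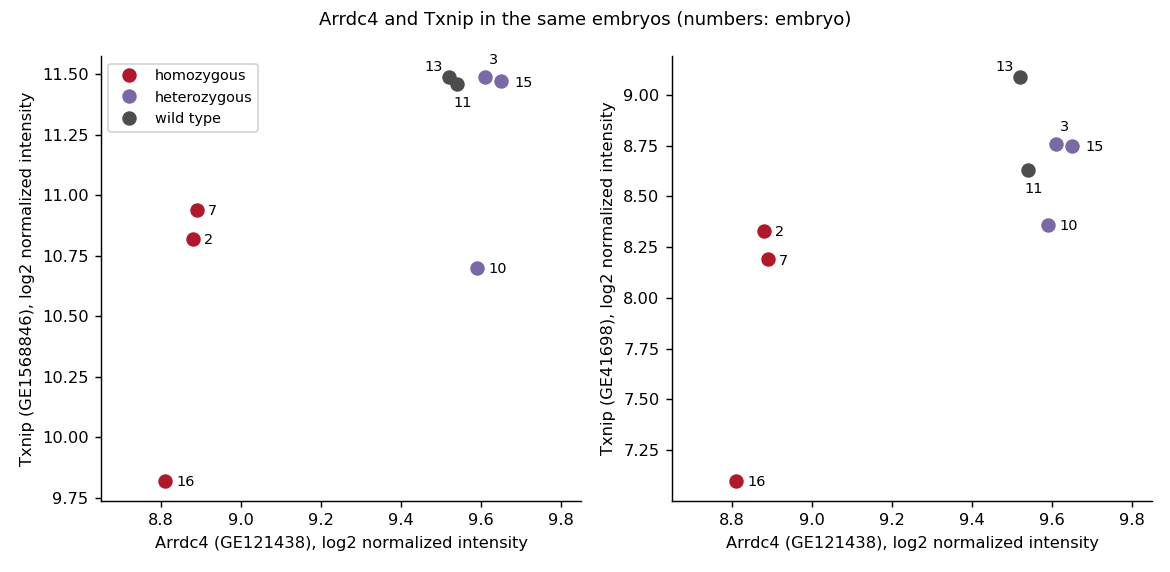
Arrdc4 (horizontal axes) against each of the 2 Txnip probes (vertical axes), both as log2 normalized intensity, with 1 point per embryo, coloured by genotype and numbered. Embryo 10 combines a low Txnip reading (10.70 and 8.36) with an Arrdc4 level of 9.59, beside 9.61 and 9.65 in the other heterozygous embryos, and embryo 16 is lowest on both axes.

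Across the 8 embryos Arrdc4 correlated with the 2 Txnip probes at a Pearson r of 0.73 and 0.75. After the genotype means were taken out these were 0.88 and 0.77. Mlx correlated with Arrdc4 at 0.73, or 0.90 after that step. With the 2 Txnip probes Mlx correlated at 0.83 and 0.84, or 0.64 and 0.65 after it. These values describe arrays that share their brightness differences. With the genotype means taken out, those of Arrdc4 rest on very small differences. Its SD was 0.05 in homozygous, 0.03 in heterozygous and 0.02 in wild type embryos. Embryo 10 was the lowest heterozygous embryo for both Arrdc4 and Txnip. It differed from the other heterozygous embryos by -0.02 and -0.06 in Arrdc4, by -0.77 and -0.79 in Txnip at GE1568846, and by -0.39 and -0.40 at GE41698. Within the homozygous group, embryo 16 differed from the higher of embryos 2 and 7 by -0.08 in Arrdc4, and by -1.12 and -1.23 at the 2 Txnip probes. Embryo 16 was the array that correlated least with the others. A fit with array weights, in which its weight was 0.22, gave Txnip differences between homozygous and the other embryos of -0.58 and -0.60. The 3 neuronal and the 3 liver markers had the same order of genotype means as Txnip. The summed normalized intensity of the neuronal markers was 1386 to 1791 in homozygous, 1169 to 2766 in heterozygous and 2796 to 3019 in wild type embryos. That of the liver markers was 1404 to 2047, 2105 to 4419 and 3795 to 4755 in the same 3 genotypes. Of the 3 markers listed for skeletal muscle, Myog and Tnnt3 had that order. Actc1, the cardiac alpha-actin gene, had the opposite one. Myog averaged 6.74 in homozygous, 7.68 in heterozygous and 8.06 in wild type embryos. In the same order of genotypes Tnnt3 averaged 5.54, 6.06 and 6.27, and Actc1 13.24, 13.04 and 13.01. The sum of these 3 markers, which is mostly Actc1, was 9358 to 10920, 7672 to 9730 and 8325 to 8887. The part of these tissues in the Txnip values was not tested.

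Arrdc2, a further alpha-arrestin, was read by the dim probe GE1509417. It read 5.15, 5.29 and 4.28 in homozygous embryos 2, 7 and 16, against 4.92, 4.74 and 4.45 in heterozygous embryos 3, 10 and 15 and 5.27 and 5.38 in wild type embryos 11 and 13. The readings of embryos 10 and 15 were not above background. Deposited intensities were 35.31, 39.41 and 35.45 in homozygous embryos 2, 7 and 16. They were 28.47, 21.09 and 17.72 in heterozygous embryos 3, 10 and 15 and 36.07 and 39.21 in wild type embryos 11 and 13. The low reading of embryo 16, the brightest array, thus appeared only after normalization. Its means were 4.91 ± 0.55 (SD, n = 3) in homozygous and 4.95 ± 0.38 (SD, n = 5) in the other embryos, a difference of -0.04 (SE 0.28, limma adjusted p = 0.944, 95% interval -0.68 to 0.59). Its sign turned with the scaling, being 0.08 when arrays were scaled to their medians and 0.05 in the deposited table, and was 0.29 without embryo 16. The interval allows a difference as low as -0.68. Heterozygous embryos averaged 4.71 ± 0.24 (SD, n = 3) and wild type embryos 5.32 ± 0.08 (SD, n = 2), a difference of -0.62 (SE 0.30, limma adjusted p = 1) in which 2 of the 3 heterozygous readings were not above background.

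Mlx, the obligate partner through which MondoA and ChREBP bind DNA, had a lower mean in homozygous embryos, without passing the test. Its probe GE36181 (gene at chr11:101086707-101092207) read 9.34, 9.27 and 9.06 in homozygous embryos 2, 7 and 16, against 9.30, 9.36 and 9.57 in heterozygous embryos 3, 10 and 15 and 9.51 and 9.46 in wild type embryos 11 and 13. Embryos 7 and 16 were lower than all heterozygous and wild type embryos, and embryo 2 was not. The means were 9.22 ± 0.15 (SD, n = 3) in homozygous and 9.44 ± 0.11 (SD, n = 5) in the other embryos, a difference of -0.22 (SE 0.10, limma adjusted p = 0.279). The 95% interval ran from -0.46 to 0.02. Scaling by array medians gave -0.47 and the deposited table gave -0.50. The median over all tested probes was -0.22 and -0.25 in these settings. Heterozygous minus wild type was -0.07 (SE 0.14, limma adjusted p = 1).

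Mlxipl, which encodes ChREBP, had its highest reading in a single homozygous embryo. Its probe GE37972 read 8.09, 7.11 and 7.30 in homozygous embryos 2, 7 and 16, against 7.11, 7.13 and 7.14 in heterozygous embryos 3, 10 and 15 and 7.25 and 7.31 in wild type embryos 11 and 13. Apart from embryo 2, the 7 embryos lay between 7.11 and 7.31. The means were 7.50 ± 0.52 (SD, n = 3) in homozygous and 7.19 ± 0.09 (SD, n = 5) in the other embryos, a difference of 0.31 (SE 0.20, limma adjusted p = 0.403), which was 0.02 without embryo 2. Heterozygous minus wild type was -0.15 (SE 0.26, limma adjusted p = 1). The 3 liver markers had their lowest means in homozygous embryos, where the Mlxipl mean was highest. Alb averaged 6.18 in homozygous, 7.33 in heterozygous and 8.63 in wild type embryos, Ttr 9.05, 10.17 and 10.52, and Afp 10.06, 10.69 and 11.22. Their summed normalized intensity was 1404 to 2047 in homozygous, 2105 to 4419 in heterozygous and 3795 to 4755 in wild type embryos, and their part in the Mlxipl values was not tested.

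Counts over the members leave out Arrdc4 wherever homozygous embryos are compared, since its fall there led to its choice. Of the 5 other probes, 0 passed the threshold of an adjusted p under 0.05 in limma's test of homozygous against the other embryos, beside 25 (0.107%) of all 23388 tested probes. At an unadjusted p under 0.05 there were 2 of the 5, beside 20% of all probes, and both read Txnip. Homozygous values lay wholly below the others at 1 of the 5, Txnip GE41698 with its margin of 0.03, beside 9.69% of all probes. Against wild type embryos, 0 of the 5 passed limma's test and 2 had an unadjusted p under 0.05, beside 0.0342% and 15.3% of all probes. Against heterozygous embryos these counts were 0 and 0 of the 5, beside 0.0214% and 11.6% of all probes. In heterozygous against wild type embryos 0 of the 6 probes passed limma's test and 0 had an unadjusted p under 0.05, beside 0 (0%) and 538 (2.3%) of all 23387 probes. Groups did not overlap at 3 of the 6, with Arrdc4 higher and Arrdc2 and Mlxipl lower in heterozygous embryos, as was so for 9.2% (higher) and 10.5% (lower) of all probes.

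**Figure D3:**
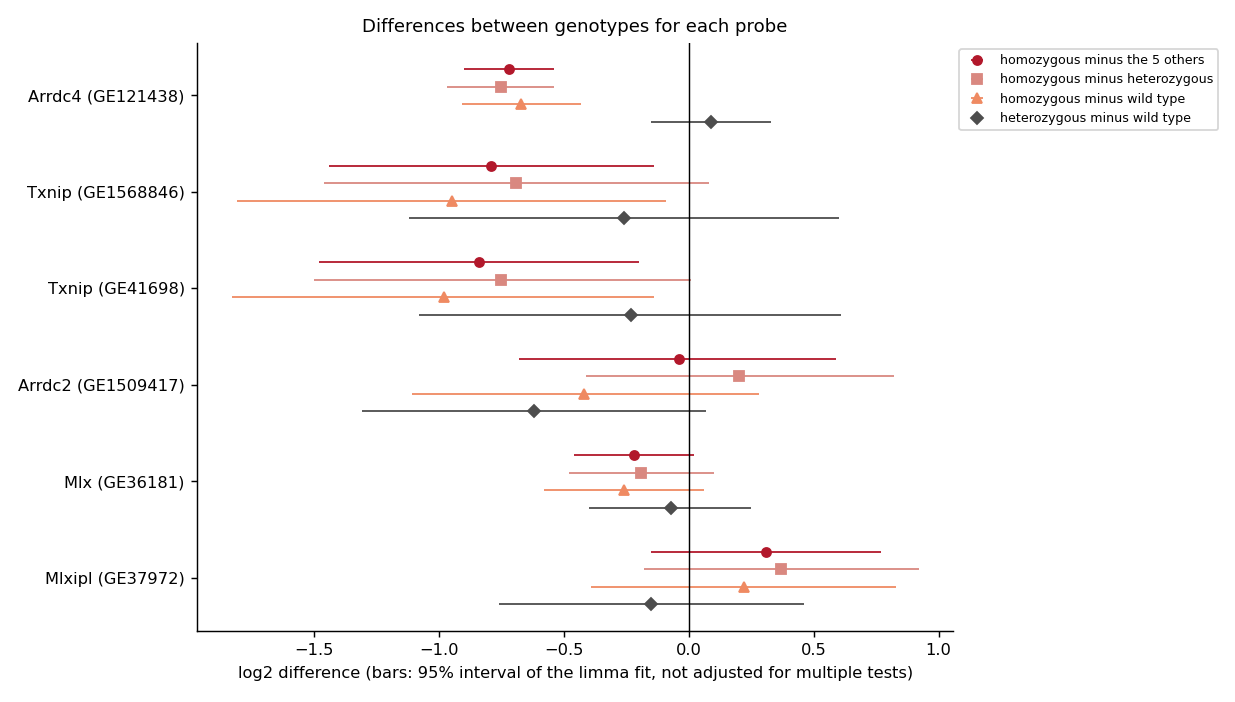
Log2 differences (horizontal axis) of the 6 probes in the 4 comparisons, with bars for the 95% interval of the limma fit, unadjusted for the number of probes. The 3 homozygous differences of Arrdc4 sit between -0.75 and -0.67 and are a description, since they led to its choice. The Txnip bars are wider, and all heterozygous minus wild type bars span 0.

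The genes most like Arrdc4 over the 8 embryos were picked by Pearson correlation among 10836 tested probes with 1 symbol and no missing value. These were Ccdc28b (r = 0.992), Apip (0.986), Ttc30a1 (0.984), Ascl3 (0.982) and Trnau1ap (0.977). Their difference between homozygous and the other embryos ranged widely, being -4.33 for Ccdc28b, -1.86 for Trnau1ap, -0.55 for Ttc30a1, -0.33 for Ascl3 and -0.29 for Apip. The 5 most like Txnip (GE1568846) were Celf3 (r = 0.994), Nap1l3 (0.990), Trafd1 (0.988), Mstn (0.986) and C1qa (0.985). Neither Arrdc4 nor the second Txnip probe (r = 0.95) was among them, and the 2 sets had no gene in common. Lists of 5 out of 10836 probes are too short for this to set Arrdc4 apart from Txnip. Arrdc4 was chosen for its fall, so its list favours probes that also fall in homozygous embryos. With 8 arrays such correlations are a description only.

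Genes that act around these arrestins were described through 7 lists, of which 51 of 71 genes were tested. In homozygous against the other embryos 0 of the 51 passed limma's test in either direction, and 17 had an unadjusted p under 0.05, beside the 20% of all probes. In heterozygous against wild type embryos 0 of the 51 passed and 1 had an unadjusted p under 0.05, beside 0% and 2.3% of all probes.

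Genes of glucose uptake and phosphorylation, the step that makes the sugar phosphate sensed by MondoA, had the highest list median. It was 0.25 over the 7 tested genes, beside -0.06 for all probes, and 0 passed limma's test in either direction. At an unadjusted p under 0.05 there were 5 of the 7, beside 20% of all probes. The lists were chosen with earlier results of these data known. Hexokinase Hk2 averaged 11.09 ± 0.36 (SD, n = 3) in homozygous and 9.89 ± 0.23 (SD, n = 5) in the other embryos, a difference of 1.20 (SE 0.18, limma adjusted p = 0.0705). The glucose transporter gene Slc2a1 averaged 9.86 ± 0.25 and 8.81 ± 0.36, a difference of 1.06 (SE 0.21, adjusted p = 0.11). The isomerase gene Gpi1 had a difference of 0.71 (SE 0.21, adjusted p = 0.163), or 0.41 without embryo 16. The liver-type transporter gene Slc2a2 went the other way at -0.44 (SE 0.15, adjusted p = 0.183). Hk1 was at 0.25 and Slc2a4 at -0.01.

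Other known ChREBP or MondoA targets had no common direction. Of 12 tested genes 0 passed, 7 had a positive and 5 a negative difference, and the median was 0.03. Bhlhe40, a transcriptional repressor, averaged 6.43 ± 1.07 (SD, n = 3) in homozygous and 5.45 ± 0.22 (SD, n = 5) in the other embryos, a difference of 0.98 (SE 0.40, limma adjusted p = 0.227) that was 0.40 without embryo 16. G6pc, the catalytic subunit of glucose-6-phosphatase, had a difference of -0.61 (SE 0.25, adjusted p = 0.227). Its probe was dim, with means of 4.72 and 5.33, and was above background in 2 homozygous and 4 other embryos. The probe was therefore kept through its heterozygous or wild type readings alone, which can favour a fall in homozygous embryos. Heterozygous minus wild type was -0.75 for G6pc, without passing limma's test. Klf10, a zinc-finger factor, averaged 8.04 ± 0.16 and 8.51 ± 0.15, a difference of -0.47 (SE 0.12, adjusted p = 0.139). The lipogenic genes Fasn, Acly and Elovl6, targets of ChREBP in liver, had differences of 0.01, 0.11 and 0.10.

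Among the Mlx and Max network, the factors that share dimer partners with or compete with Mlx, 0 of 9 tested genes passed and the median was -0.06, as for all probes. Mycn had the largest difference of the list, 0.68 (SE 0.16, limma adjusted p = 0.129), followed by Mga at 0.58 (SE 0.45), or 0.99 without embryo 16, and Myc at 0.44 (SE 0.15, adjusted p = 0.187). Mxd3, which represses transcription as a partner of Max, was at -0.52 (SE 0.20, adjusted p = 0.208), or -0.32 without embryo 16. Both the Myc and the Mxd families held members of either sign, with Mycl at -0.06 and the repressor gene Mxi1 at 0.22.

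In the lists of arrestin partners and related proteins 0 genes passed the threshold. Of the Nedd4-family ubiquitin ligases only 3 of 9 were tested, with Hecw2 at -0.07, Nedd4l at -0.01 and Smurf1 at 0.02. The thioredoxin system, whose protein thioredoxin is bound by Txnip, had 12 of 12 genes tested and a median of -0.10, with 0 past the threshold. Its extremes were the glutaredoxin gene Glrx at -0.39 (SE 0.14, limma adjusted p = 0.187) and the reductase gene Txnrd3 at 0.24 (SE 0.09, adjusted p = 0.198), and thioredoxin itself, Txn1, was at -0.03 (SE 0.08). Among 4 tested genes of other arrestin-fold proteins, the beta-arrestin gene Arrb2 was at -0.31 (SE 0.12, adjusted p = 0.22), or -0.16 without embryo 16, and Arrb1 was at 0.18, or -0.02 without it. AMPK, the energy-sensing kinase that marks TXNIP for degradation, had 4 tested subunits with a median of -0.14, of which Prkab2 was at 0.61 (SE 0.16, adjusted p = 0.144), or 0.40 without embryo 16, and Prkab1 at -0.29 (SE 0.13, adjusted p = 0.26).

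**Figure D4:**
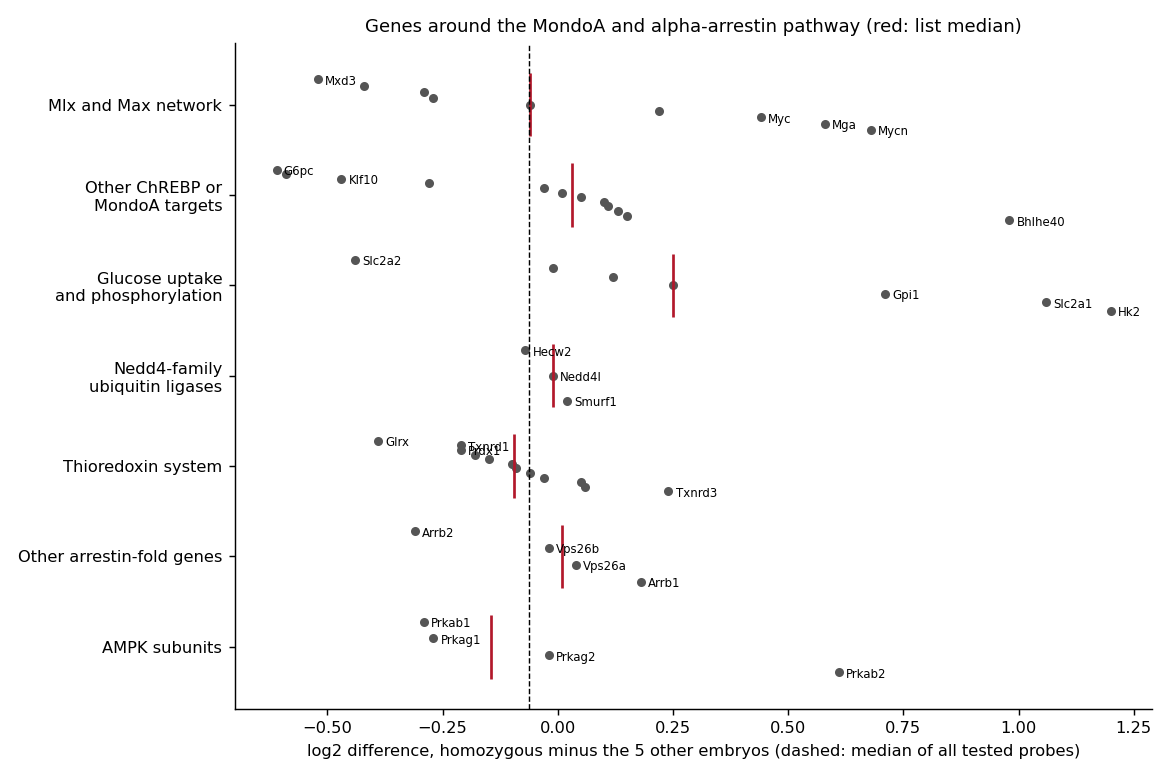
Log2 difference of homozygous minus the 5 other embryos (horizontal axis) for each tested gene of the 7 lists (rows), with list medians in red and the median of all tested probes (-0.06) dashed; up to 4 genes per list with the largest differences are named. Hk2, Slc2a1 and Bhlhe40 lie farthest to the right, and no gene plotted passed the threshold.

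How far each difference depends on the setting is shown in the plot of all 6 probes under each alternative. Arrdc4 lay between -0.99 and -0.66, which is a description, since its fall on these arrays led to its choice. Txnip stayed negative at both probes, and Mlx stayed negative throughout, between -0.50 and -0.14. Mlxipl stayed positive, between 0.02 and 0.51, and Arrdc2 took both signs, between -0.23 and 0.29.

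**Figure D5:**
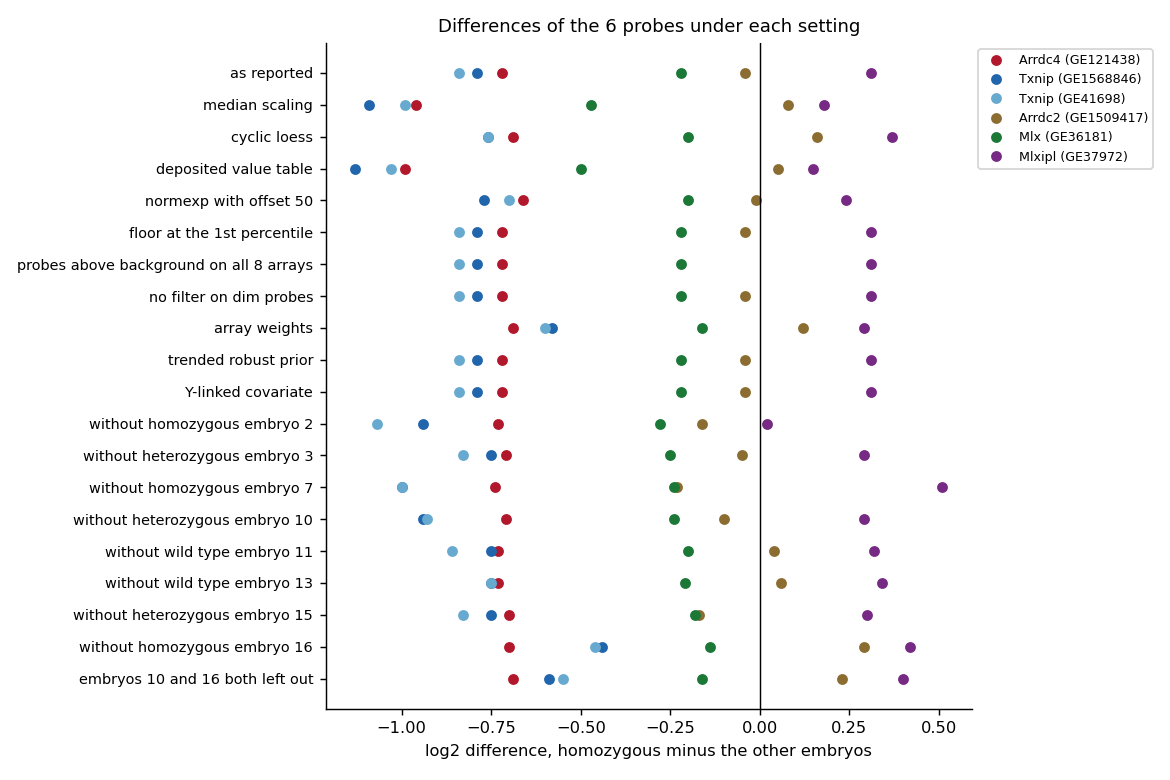
Log2 difference of homozygous minus the other embryos (horizontal axis) for the 6 probes under the reported setting and each alternative (rows). When embryos are left out in turn, Arrdc4 has the narrowest range (-0.74 to -0.70). Without embryo 16 the Txnip probes move to -0.44 and -0.46. Arrdc4 was chosen for its fall in homozygous embryos on these same arrays. Its narrow range is therefore a description and no test of stability.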

How the data were processed

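The authors deposited, per the file headers, a spot intensity per array (the mean of the spot less the median of its local background) and a scaled intensity that divides it by 1 factor per array (48.6 to 88.5). The deposited value table holds the same scaled intensities. Scanner software is not given in the sources used here. Spots marked contaminated, irregular or masked were set missing and control spots left out. Intensities were quantile normalized with limma 3.58.1 in R 4.3.3, floored at the 5th percentile of positive values (4.5, or 2.17 as log2) and log2 transformed. A probe was kept if every array of 1 genotype or more had it above background, and was fitted with lmFit and eBayes, two-sided, with Benjamini-Hochberg adjustment over all tested probes. Homozygous against the others used 2 groups, and the other comparisons 3 genotype means. The fit was tested on simulated data.

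Accessions were matched to RefSeq genes of GRCm38.p6, giving 14760 gene probes 1 symbol. Promoter windows run from 250 bases before to 50 after a start. All member probes are named, with the 5 probes most correlated with Arrdc4 and with Txnip, and up to 4 genes per list by size of difference; Fasn, Acly, Elovl6, Txn1, Hk1, Slc2a4, Mycl and Mxi1 were added after their values were seen. The results of 2 list genes are not reported here. For a gene with several probes in a list, the brightest was used. The members and lists were chosen with earlier results of these data known. The number of arrays limits the precision.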

Additional observations from a re-analysis of the deposited data

Results flagged for a closer look

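The Txnip level of heterozygous embryo 10 at probe GE1568846, 10.70, lay far from those of the other heterozygous and wild type embryos, of which the nearest was 11.46. Its distance to the nearest value was 0.964 of the range of these 5 embryos, above the Dixon critical value of 0.71. This check was made for 6 probes, and chance marks about 1 in 20 such groups. At the second Txnip probe embryo 10 was also the lowest of the 5, at 8.36. Its array had the lowest median intensity, 48.3. The array of embryo 15 was nearly as dim, at 48.7, and read 11.47 and 8.75 at the 2 Txnip probes. Without embryo 10 the homozygous minus other difference at GE1568846 was -0.94 (limma adjusted p = 0.158). The part of array brightness in the Txnip level of embryo 10 was not tested.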

How the results depend on the processing

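Over all alternatives the Txnip, Mlx, Mlxipl and Arrdc2 probes did not pass in any comparison, and 0 of the 6 probes passed in heterozygous against wild type embryos in each. Arrdc4 was chosen for its fall in homozygous embryos, so its own count is no test of it: as a description, the count of 1 became 0 under median scaling, with no filter on dim probes, and with embryos 10 and 16 both left out (a setting chosen after the data were seen), and was 0 to 1 with 1 embryo left out (0 without embryo 2, 3, 11, 13 or 15). Over all probes, 25 passed in homozygous against the others, against 42 under cyclic loess, 45 in the deposited value table, 85 with normexp, 50 with probes above background on all 8 arrays, 6 with no filter, 114 with array weights, 118 with a trended robust prior, 58 with the Y-linked covariate, 70 without embryos 10 and 16, and 5 to 314 with 1 embryo left out (314 without embryo 7). The 25 were 7 higher and 18 lower, against 20 higher and 22 lower with cyclic loess and 44 and 41 with normexp. Homozygous against wild type gave 8, against 27 under median scaling, 20 under cyclic loess, 27 in the deposited table, 36 with normexp, 5 with the floor at the 1st percentile, 4 with no filter, 208 with array weights, 48 with the trended robust prior, 0 with only the groups compared, 33 without embryos 10 and 16, and 0 to 42 with 1 embryo left out. Homozygous against heterozygous gave 5, against 10 with median scaling, 9 with cyclic loess, 12 in the deposited table, 11 with normexp, 13 with array weights, 16 with the trended robust prior, 33 without embryos 10 and 16, and 4 to 58 with 1 left out. Heterozygous against wild type gave 0, against 2 each with median scaling and for the deposited table, 1 each under cyclic loess, array weights and the trended robust prior, 9 without embryos 10 and 16, and 0 to 3 with 1 left out. The cause was not tested. A block for slide or scan was not run, because each array has its own number and no shared batch is given. No paired analysis was possible because the genotypes share no embryo number. With 1 wild type embryo dropped, the lone remaining one is assumed to vary like the other genotypes.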
